A study of Mus musculus with 4 samples.

Results

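Actin isoforms and tropomyosin 1 were followed across the cell clusters of a mouse cardiac differentiation. The genes were the sarcomeric and smooth muscle actins Actc1, Acta1 and Acta2, the cytoplasmic actins Actb and Actg1, and the tropomyosin gene Tpm1, taken by name from the authors' deposited table of cluster marker genes. All 6 were present among the 1197 genes of that table, with 21 of its 2212 entries. Each entry sets the cells of 1 of 15 numbered clusters against all other cells. It gives a natural log fold change and the share of cells with the gene detected inside and outside the cluster. A gene is listed for a cluster where the absolute natural log fold change is at least 0.50 and the larger of the 2 shares is at least 25.1%, which are the smallest values by the authors' deposited table. The column's header says only that it is a log; the natural base is taken from how Seurat names this column, and with base 2 each deposited fold below would be smaller.

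The cells came from mouse embryonic stem cells taken through a directed cardiac differentiation and profiled by 10x droplet sequencing. The labels give 4 libraries, 1 for each group: mesoderm with the genotype BRG1 3XFLAG, mesoderm with BRG1 3XFLAG and BRM KO, and cardiac progenitors of each of these genotypes. All 4 groups share the tagged BRG1, and the labels do not say whether a genotype is a single clone. The columns of the deposited table name no library, so genotypes and stages were not compared, no value has a replicate, and no test was made. How many cells each library gave, and how deeply, is unknown. Clustering used the expression of these same cells, so the values below describe the clusters and are not independent of how they were made.

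Actin assembles from monomers into filaments, and tropomyosin is a coiled coil that lies along the filament and sets where other proteins can bind it. In striated muscle the thin filament is built of alpha actin, tropomyosin and the troponin complex, which makes contraction depend on calcium. Actc1 encodes the cardiac and Acta1 the skeletal alpha actin, and both are expressed in the embryonic heart. Acta2 encodes the smooth muscle alpha actin, which early cardiomyocytes also express for a time. Actb and Actg1 encode the beta and gamma actins of the cytoskeleton of most cells, and Tpm1 gives rise to muscle and non-muscle tropomyosins through alternative promoters and splicing. The table holds 1 value for Tpm1 and does not separate its transcripts, of which the GENCODE M21 annotation holds 21.

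The 3 muscle actins and Tpm1 stood higher in cluster 2, and both cytoplasmic actins stood lower there. Each of the 6 genes was thus listed for cluster 2, where 22.7% of the table's genes were listed higher and 25.7% lower. Actc1, Acta1 and Tpm1 were also listed higher in cluster 13, as were 5.35% of the table's genes, and 4.76% were listed higher in both clusters. These percentages are over genes that the table lists for at least 1 cluster, not over all genes measured. Of the 14 cardiomyocyte markers looked up, 13 were in the table, all 13 were higher in cluster 2 and 12 were higher in cluster 13. None of the 9 skeletal muscle markers looked up was in the table. Of the 6 smooth muscle markers, Tagln, Cnn1 and Myocd were listed, all higher in cluster 2.

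**Figure D1:**
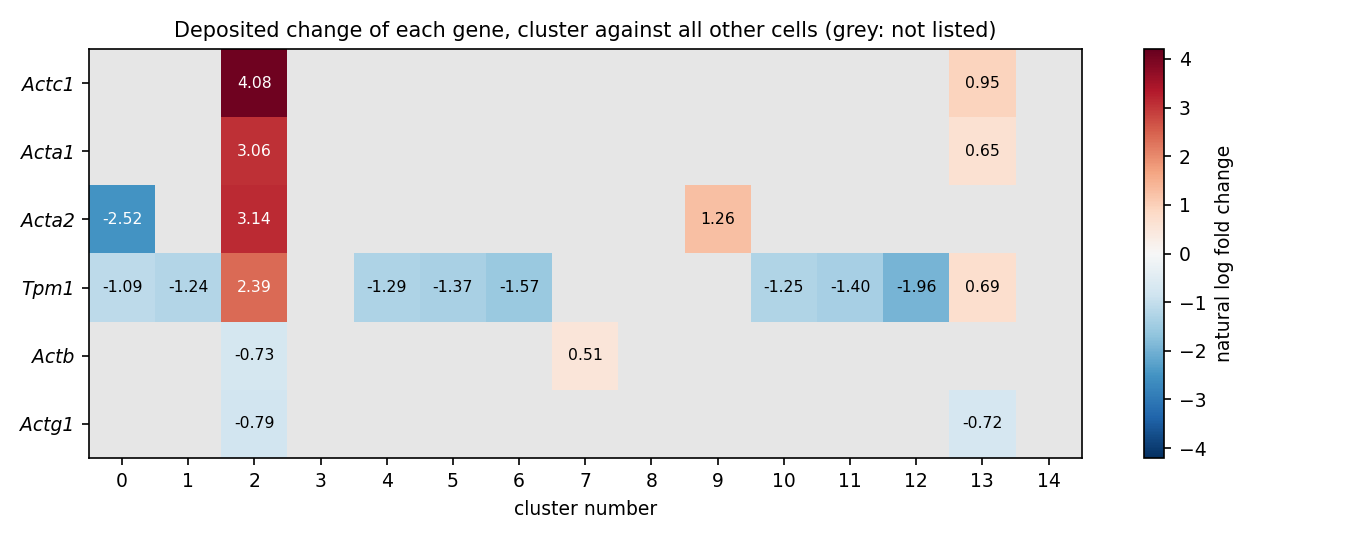
Deposited natural log fold change of the 6 genes (vertical) in the 15 clusters (horizontal), with the value written in each listed square and grey where the gene is not listed. Cluster 2 is the only column with all 6 genes, with values from -0.79 for Actg1 to 4.08 for Actc1, and Tpm1 is the gene with the most listed clusters.

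Actc1 had the largest fold change of the 272 genes listed higher in cluster 2. Its detection was 98.2% inside against 8.6% outside, at a 58.9-fold higher level by the authors' deposited table (16.9-fold if its logs were base 2). The shares of detecting cells differed 11.4-fold and the mean level by more, so the level per detecting cell was 5.16-fold higher inside, computed from the authors' deposited table. Acta1 ranked 8 among the same genes. Its detection was 80.2% inside against 4.4% outside, at a 21.3-fold higher level by the authors' deposited table (8.32-fold with base 2). Here the shares of detecting cells differed 18.2-fold, so the level per detecting cell was 1.17-fold higher inside, computed from the authors' deposited table. With base 2, the level per detecting cell inside would be 1.48 times that outside for Actc1 and 0.457 times for Acta1, so for Acta1 its direction depends on the base. Under either base this ratio was larger for Actc1. If the authors added a constant before taking logs, folds of genes with low levels are understated, and the values per detecting cell with them. Free RNA in droplets can give a count in a cell that does not express a gene, and over the 13 clusters that list neither gene 8.38% of cells detected Actc1 and 4.18% detected Acta1.

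Cluster 13 listed both sarcomeric actins at smaller values. Actc1 was 2.58-fold higher there, in 48% of cells inside against 19.8% outside by the authors' deposited table. Acta1 was 1.92-fold higher, in 36.3% against 13.8% by the authors' deposited table. Cells of cluster 2 are part of the reference in these entries. Solving for cluster sizes from the deposited shares put cluster 2 at 12.6% of all cells and cluster 13 at 0.488%. With cluster 2 taken out of the reference, Actc1 was 24.1-fold and Acta1 7.04-fold higher in cluster 13, computed from the authors' deposited table. Relative to the mean of all cells, the level of Actc1 was 7.08 in cluster 2, 2.56 in cluster 13 and 0.106 over the clusters that do not list it. For Acta1 these relative levels were 5.97, 1.91 and 0.272. Cluster 13 therefore lay between cluster 2 and the mean of the other clusters for both genes. All 10 mitochondrially encoded genes of the table were listed higher in cluster 13, beside 5.35% of the table's genes. In cluster 2, 4 of the 10 were listed higher, beside 22.7% of the table's genes. In cluster 14, 3 of the 10 were listed higher, beside 314 of the table's 1197 genes. The part of the mitochondrially encoded genes in the values of clusters 2 and 13 was not tested.

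The sequences upstream of the actin genes are shown because 3 of them stood higher in cluster 2 together and Actg1 stood lower. The CArG box is the site of serum response factor, which drives muscle and cytoskeletal actin genes with cofactors of the myocardin family. It has 10 letters, reads the same on both strands, and was searched in the 250 bases before the start of each gene in RefSeq's promoters of build GRCm38.p6. Of the 6 genes, 5 matched an entry by symbol, and Actb did not. Capitals mark each CArG box and each stretch that differs from it at 1 letter. The windows lie on the minus strand at chr2:114052876-114053125 (Actc1), chr8:123894776-123895025 (Acta1), chr19:34255374-34255623 (Acta2) and chr11:120348496-120348745 (Actg1).
Actc1: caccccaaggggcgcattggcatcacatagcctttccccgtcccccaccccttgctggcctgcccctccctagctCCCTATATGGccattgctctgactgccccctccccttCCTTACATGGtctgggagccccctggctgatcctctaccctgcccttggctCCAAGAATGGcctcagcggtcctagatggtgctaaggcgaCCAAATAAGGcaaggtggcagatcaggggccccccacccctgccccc
Acta1: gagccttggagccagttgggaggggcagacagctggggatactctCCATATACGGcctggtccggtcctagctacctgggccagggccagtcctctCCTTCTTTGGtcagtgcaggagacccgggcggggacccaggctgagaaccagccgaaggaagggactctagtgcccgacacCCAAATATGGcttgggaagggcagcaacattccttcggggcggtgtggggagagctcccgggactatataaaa
Acta2: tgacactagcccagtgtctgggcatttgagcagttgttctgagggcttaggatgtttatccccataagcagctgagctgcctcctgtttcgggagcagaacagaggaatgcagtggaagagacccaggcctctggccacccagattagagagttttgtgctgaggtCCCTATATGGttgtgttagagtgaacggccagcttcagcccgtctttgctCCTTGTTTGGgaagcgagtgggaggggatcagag
Actg1: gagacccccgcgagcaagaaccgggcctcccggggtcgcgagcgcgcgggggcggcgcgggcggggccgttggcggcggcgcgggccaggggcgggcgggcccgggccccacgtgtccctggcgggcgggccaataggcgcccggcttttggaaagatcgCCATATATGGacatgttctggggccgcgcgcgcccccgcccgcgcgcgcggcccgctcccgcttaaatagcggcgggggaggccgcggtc

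A full CArG box lay upstream of Actc1 (CCAAATAAGG, starting 47 bases before the start), Acta1 (CCAAATATGG, 73 bases before) and Actg1 (CCATATATGG, 90 bases before). Distances are counted back from the end of each window. That end is taken as the start and was not checked against measured transcription starts. Acta2 held no full box and had 2 stretches with 1 mismatch, CCCTATATGG at 84 bases and CCTTGTTTGG at 34 bases before the start. The stretch CCCTATATGG also lay 175 bases before Actc1. Tpm1, at chr9:67049214-67049463 on the minus strand, held no full box and 2 stretches with 1 mismatch. Of all 32851 promoter windows of this length, 1.47% held a full box and 18.6% a box or a stretch with 1 mismatch. The match is one of letters, and its relation to the changes in cluster 2 was not tested. For Tpm1 the search covered the 1 window given here, and that gene has alternative promoters. The letters do not show whether a full box and a stretch with 1 mismatch differ in binding. Binding was not measured. Of the 9 genes on the list of serum response factor and its cofactors, Myocd and Fhl2 were in the table. Myocd, the muscle cofactor myocardin, was 2.08-fold higher in cluster 2, in 25.4% of cells inside against 0.6% outside by the authors' deposited table.

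Acta2 was listed for 3 clusters, higher in clusters 2 and 9 and lower in cluster 0. In cluster 2 it was detected in 97.3% of cells against 11.4% outside and was 23.1-fold higher, rank 7 of 272 by the authors' deposited table. In cluster 9 it was detected in 83% of cells against 20.3% outside and was 3.52-fold higher, rank 9 of 115 by the authors' deposited table. In cluster 0 it was detected in 3.8% of cells against 25.7% outside and was 12.5-fold lower, the largest fall of the 45 genes listed lower there by the authors' deposited table. Of the table's genes, 9.61% were listed higher in cluster 9, 3.43% higher in both clusters 2 and 9, and 3.76% lower in cluster 0.

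The Acta2 values depended strongly on cluster 2 in the reference. Without it, cluster 9 was 22-fold higher than the remaining cells and cluster 0 was 3.21-fold lower, computed from the authors' deposited table. The share of detecting cells in those remaining cells was 8.72% for cluster 9 and 13.1% for cluster 0. On the scale relative to the mean of all cells, the level of Acta2 was 6.09 in cluster 2, 3.26 in cluster 9, 0.160 over the 12 clusters that do not list it and 0.0936 in cluster 0. The ratio between clusters 2 and 9 was 1.87. Acta2 was thus the one muscle actin with a listed higher value outside clusters 2 and 13. In cluster 9, 1 of the 13 cardiomyocyte markers in the table was listed higher (Tnni1) and 1 lower (Myl3). Of the 3 smooth muscle markers in the table, 1 was listed there, Tagln, which was higher. Of the 5 fibroblast markers in the table, 1 was listed there, Col1a1, which was higher. Of the table's 1197 genes, 115 (9.61%) were listed higher in cluster 9 and 48 lower.

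**Figure D2:**
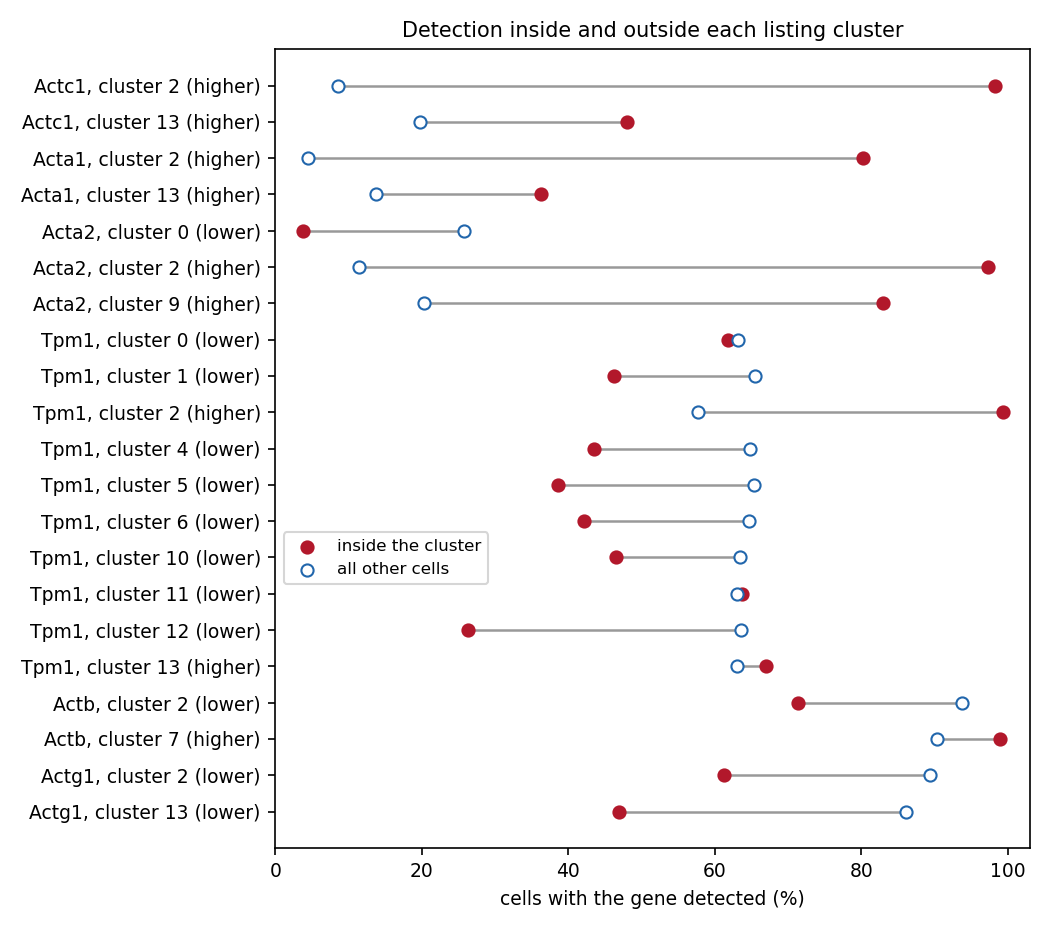
Share of cells with the gene detected (horizontal, percent) inside each listing cluster (filled) and in all other cells (open) for the 21 entries of the 6 genes. The muscle actins in cluster 2 show the widest gaps, from 4.4% to 80.2% for Acta1, whereas Tpm1 in clusters 0 and 11 was detected in nearly the same share of cells inside and outside.

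Tpm1 was listed for 10 of the 15 clusters, a number that 1.67% of the table's genes reached or passed. In cluster 2 its level was 10.96-fold higher, with detection in 99.4% of cells against 57.7% outside, by the authors' deposited table. In cluster 13 it was 1.99-fold higher, in 67% of cells against 63% by the authors' deposited table. It was listed lower in the other 8 clusters, and 1.09% of the table's genes were listed lower in that many. Clusters 0, 1, 4, 5, 6, 10, 11 and 12 gave 2.98-fold to 7.11-fold lower values, with a median of 3.78-fold, computed from the authors' deposited table. The shares of the table's genes listed lower in these clusters were 3.76%, 2.59%, 2.42%, 4.26%, 2.17%, 4.09%, 1.59% and 3.84% in that order. Cluster 12 gave the lowest value: 26.3% of its cells detected Tpm1 against 63.6% outside, and the level was 7.11-fold lower by the authors' deposited table. Of the 6 neuron markers looked up, 4 were in the table. All 4 were higher in cluster 12, beside 93 of the table's 1197 genes. Tpm1 was the largest fall of all genes listed lower in clusters 6, 11 and 12.

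**Figure D3:**
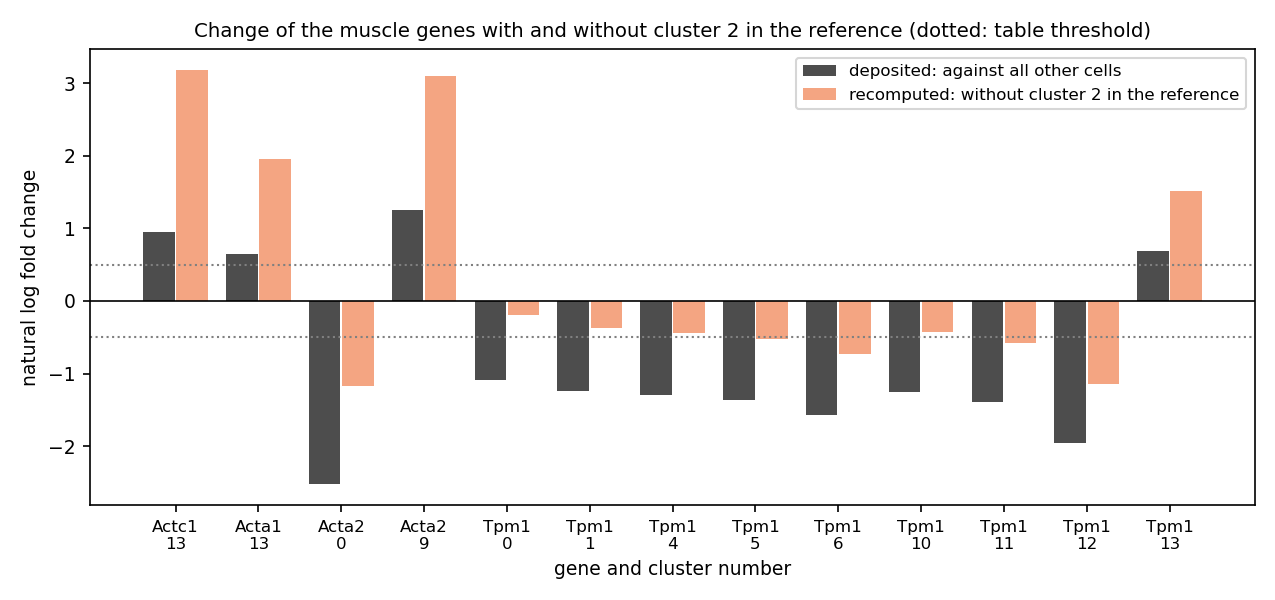
Natural log fold change (vertical) of the 3 muscle actins and Tpm1 in each listing cluster other than 2 (horizontal), as deposited (dark) and recomputed without cluster 2 in the reference (light), with dotted lines at the table's threshold of 0.5. Every bar keeps its side of 0: lower values move towards 0 and higher values away from it, and 4 of the 8 lower Tpm1 values end inside the dotted lines.

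On the natural log scale, much of the depth of these lower values came with cluster 2 in the reference. This was least so in cluster 12, where the value went from -1.96 to -1.14 without it. Without cluster 2, Tpm1 was 1.22-fold to 3.14-fold lower in the 8 clusters, with a median of 1.63-fold. Clusters 5, 6, 11 and 12 stayed past 0.5 on the natural log scale, at 1.69-fold, 2.09-fold, 1.78-fold and 3.14-fold lower. Clusters 0, 1, 4 and 10 came within it, at 1.22-fold, 1.46-fold, 1.57-fold and 1.54-fold lower. In cluster 13, Tpm1 was 4.57-fold higher without cluster 2 in the reference. Detection and level did not move together in clusters 0 and 11. In cluster 0, 61.8% of cells detected Tpm1 in the authors' deposited table, against 56.8% of the cells outside clusters 0 and 2, although the level was lower. In cluster 11 these shares were 63.7% and 57.6%.

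The relative levels give an order of the clusters for Tpm1. Cluster 2 was at 4.85 times the mean of all cells and cluster 13 at 1.98. The 5 clusters that do not list it (3, 7, 8, 9 and 14) had a joint mean of 0.727, and 78.6% of their cells detected it. Each of the 5 lay between 0.607 and 1.65 unless its p-value kept it from the table. Cluster 0 followed at 0.375, cluster 1 at 0.319, cluster 4 at 0.293, cluster 10 at 0.291, cluster 5 at 0.272, cluster 11 at 0.251, cluster 6 at 0.222 and cluster 12 at 0.143. In cluster 13 Tpm1 was higher together with Actc1 and Acta1. Outside clusters 2 and 13 it was detected in 26.3% to 63.7% of cells in the clusters that list it lower, whereas Actc1 was detected in 8.38% and Acta1 in 4.18% of cells in the 13 clusters that list neither. No replicate gives a spread for this order, so neighbours such as clusters 4 and 10 cannot be told apart.

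The cytoplasmic actins were detected in most cells of all clusters together, Actb in 91.0% and Actg1 in 85.9%. In cluster 2, Actb was detected in 71.3% of cells against 93.8% outside and was 2.07-fold lower by the authors' deposited table. Actg1 was detected in 61.3% against 89.4% and was 2.21-fold lower there by the authors' deposited table. They ranked 126 and 94 by size of change among the 308 genes listed lower in cluster 2. The 2 cytoplasmic actins thus stood at about the same relative level in cluster 2, 0.518 for Actb and 0.486 for Actg1.

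Each was listed for 1 further cluster. Actg1 was listed lower in cluster 13, as were 2.01% of the table's genes, and its detection was 46.9% inside against 86.1% outside at a 2.05-fold lower level by the authors' deposited table. It was the second largest fall of the 24 genes listed lower there, and Actb was not listed for cluster 13. Actb was listed higher in cluster 7, as were 3.34% of the table's genes, and its detection was 99% inside against 90.4% outside at a 1.66-fold higher level by the authors' deposited table. That value lay near the table's threshold, at 0.51 on the natural log scale, and came to 0.44 without cluster 2 in the reference. Each gene was detected well above the table's minimum share in all entries. Cluster 7 does not list Actg1, whose relative level there could reach 1.58 within the threshold, beside 1.59 for Actb, so the entries do not show that the 2 genes differed in cluster 7. A cluster that does not list Actb or Actg1 had either a change within 0.5 or a p-value above those in the table, of which the largest was 0.00755.

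**Figure D4:**
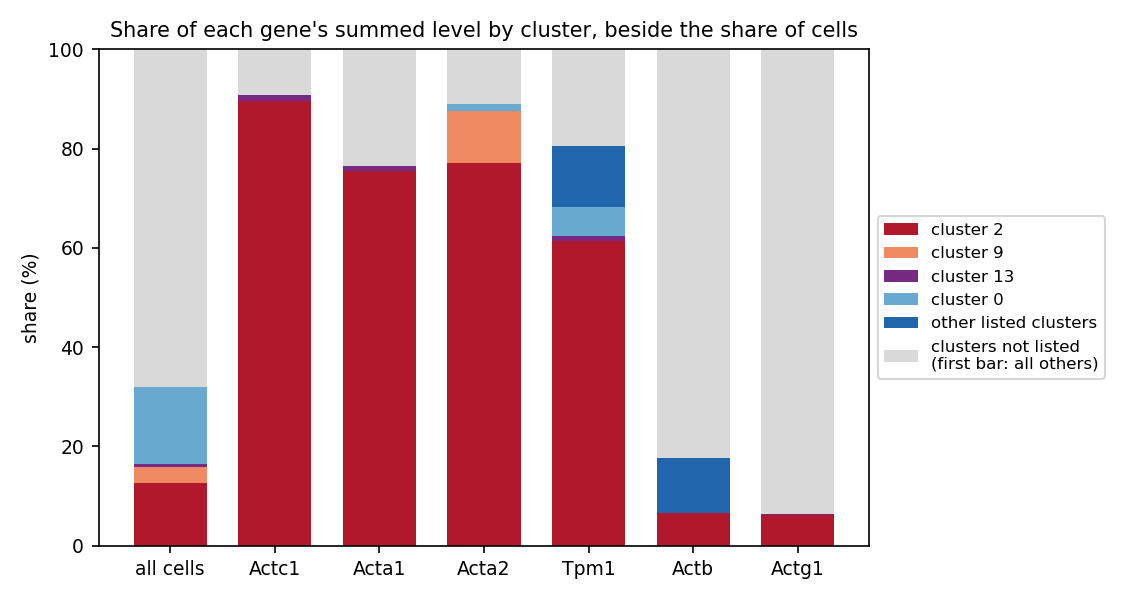
Share of the summed level of each gene (vertical, percent) that falls to clusters 2, 9, 13 and 0, to other listed clusters and to clusters that do not list the gene, beside the share of all cells in the first bar. Cluster 2 holds 12.6% of the cells, between 61.3% and 89.5% of the summed level of the 3 muscle actins and Tpm1, and 6.55% and 6.15% of that of Actb and Actg1. The deposited logs are taken as natural, with no constant added before them.

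Summed over all cells, the 6 genes fell into 2 patterns. Cluster 2 held 89.5% of the summed level of Actc1, 77.0% of Acta2, 75.5% of Acta1 and 61.3% of Tpm1, against 6.55% of Actb and 6.15% of Actg1. With base 2 these shares would be 70.9%, 56.1%, 54.6% and 43.2%, against 8.05% and 7.71%, in the same order of genes. Counted by detecting cells, cluster 2 held 72.5% of those with Acta1, 62.3% of those with Actc1 and 55.3% of those with Acta2. It held 19.96% of those with Tpm1, 9.91% of those with Actb and 9.03% of those with Actg1. Cells with Acta1 were thus the most concentrated in cluster 2 by detection. By amount, the level of Actc1 was the most concentrated under either base. The shares of the summed level assume that no constant was added before the logs. Such a constant would alter the shares of low genes, and the order by amount was not checked for it. Cluster 9 held 10.6% of the summed level of Acta2 with 3.25% of the cells. The 8 clusters that list Tpm1 lower held 60.0% of the cells and 18.2% of its summed level.

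Reads of the actin genes could in principle be confused, because their coding sequences are alike. In the GENCODE M21 transcripts, 10 pairs of the 5 actins were 81.9% to 88.7% identical over aligned coding bases, with the highest value for Actb and Actg1. Reads of this assay come from the 3' end of transcripts. Of the 351 windows of 50 bases in the last 400 bases of each gene's transcript, none occurred in another of the 6 genes. For Actb, 12.0% of windows occurred in a transcript of Lrrc58, and for the other 5 genes none occurred in any other gene. The treatment of reads that match several genes is, in the sources used here, not given.

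Other proteins of the thin filament followed the muscle actins in cluster 2. Of 20 genes listed as thin filament regulators, 9 were in the table: 7 were higher and 2 lower in cluster 2. Of the table's genes, 22.7% were listed higher there and 25.7% lower. The median natural log fold change of the 9 was 1.28. The median of -0.52 over all genes listed for cluster 2 mixes 272 higher and 308 lower entries. Tnnt2, the tropomyosin-binding troponin subunit, was 35.2-fold higher by the authors' deposited table. Tnni1 and Tnni3, the slow skeletal and cardiac inhibitory subunits, were 26.4-fold and 10.2-fold higher, and Tmod1, which caps the slow-growing filament end, was 5.58-fold higher by the authors' deposited table. The other tropomyosin genes of the table went the opposite way from Tpm1. Tpm3 was 2.18-fold lower in cluster 2, in 8.3% of cells against 36.4%, and Tpm4 was 1.68-fold lower, in 20.3% against 41.6% by the authors' deposited table (both chosen after their values were seen). In cluster 13, 4 of the 9 were higher and none lower, beside 5.35% and 2.01% of the table's genes. In cluster 9 only Tnni1 was listed, 1.86-fold higher by the authors' deposited table.

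Of 30 genes listed as crosslinkers or smooth muscle actin-binding, 18 were in the table. In cluster 2, 13 were higher and 2 lower, with a median natural log fold change of 1.56. Of the table's genes, 22.7% were listed higher there and 25.7% lower. The 13 were Actn2, Cnn1, Cnn2, Csrp1, Csrp2, Csrp3, Flnc, Ldb3, Myl6, Myl9, Pdlim5, Pdlim7 and Tagln. They include Actn2, also counted among the cardiomyocyte markers, and the myosin light chains Myl6 and Myl9. In cluster 9, where Acta2 stood higher, 6 of the 18 were higher and none lower, beside 9.61% of the table's genes listed higher. The median of these 6 was 0.89. The median of 0.60 over all genes listed for cluster 9 mixes 115 higher and 48 lower entries. Myl9, a regulatory light chain of smooth muscle and non-muscle myosin, was 17.5-fold higher in cluster 2 and lower in 11 clusters, by 2.65-fold to 5.61-fold by the authors' deposited table. Cells of cluster 2 are part of the reference in these 11 entries. Myl9 was not recomputed without them, so its level in the 11 clusters against the remaining cells is not known. Csrp2, a LIM protein of smooth muscle, stood 3.74-fold above the other cells in cluster 2 and 2.57-fold in cluster 9 by the authors' deposited table. Tagln2, the non-muscle transgelin, was 2.81-fold lower in cluster 2 and 2.46-fold higher in cluster 9 by the authors' deposited table. The other gene listed lower in cluster 2 was Fscn1, the bundling protein fascin, at 2.57-fold, and the widely expressed calponin Cnn2 was 1.98-fold higher by the authors' deposited table (both chosen after their values were seen).

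Of 32 monomer-binding and turnover genes, 14 were in the table, with 3 higher and 3 lower in cluster 2. These counts are near the background for that cluster, 22.7% of the table's genes higher and 25.7% lower, and say nothing particular about the list. The median natural log fold change of 0.03 is the midpoint between the 3 higher and the 3 lower values. Dstn, which encodes the actin-depolymerizing protein destrin, was 3.62-fold higher in cluster 2 by the authors' deposited table. Marcks, a membrane protein that binds actin filaments, was 4.79-fold lower there by the authors' deposited table. Tmsb4x, a thymosin that holds actin monomers, was not listed for cluster 2. It was 3.36-fold higher in cluster 9 and 2.73-fold lower in cluster 0, where Acta2 had the same directions, by the authors' deposited table. Acta2 was not listed for the other 4 clusters of Tmsb4x, which was 3.68-fold higher in cluster 12, 1.69-fold higher in clusters 10 and 14 and 1.66-fold lower in cluster 7 by the authors' deposited table. Pfn2, a profilin, was lower in 5 clusters by 1.79-fold to 2.23-fold and higher in 2 by the authors' deposited table.

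Genes with the most similar pattern were ranked by the cosine of the natural log fold changes over the 15 clusters, with 0 where a gene was not listed. This was done for the members listed for 3 or more clusters, Tpm1 and Acta2. All clusters share most of their reference, and the large values of cluster 2 weigh most. Myl6, the essential light chain of smooth muscle and non-muscle myosin, was most like Tpm1 with a cosine of 0.97 and was listed in the same direction in 9 clusters. Rbpms, an RNA-binding protein gene, followed with 0.94 and 8 clusters, and the glucose transporter gene Slc2a1 with 0.89 and 8 clusters. For Acta2, the values were lower: 0.76 for Lbh, 0.75 for Des, the muscle intermediate filament desmin, and 0.75 for Tnni1. Each of these 3 was listed higher with Acta2 in clusters 2 and 9, was not listed for cluster 0, and was listed higher in cluster 13, where Acta2 was not. None of the 3 stayed when genes were ranked by the clusters listing both in the same direction, as a share of those listing either. By that measure Slc2a3, a glucose transporter gene, came first at 0.75, with the direction of Acta2 in clusters 0, 2 and 9, and it was also higher in cluster 14.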

How the data were processed

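Single cells of 4 libraries, 1 per group, were processed by the authors with Cell Ranger and Seurat against mm9, per the submitters' processing notes; versions, cell filters, treatment of doublets and clustering settings are, in the sources used here, not given. The authors deposited 1 table. Its deposited fold changes are taken as natural log values from the column name that Seurat uses; the header does not give the base. Its shares of cells are deposited as a fraction from 0 to 1 and printed as percent. Its deposited p-value columns compare cells, which are not replicates, and served only 1 alternative, as a filter. Depth is unknown, so no interval was made.

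The 6 genes, the lists and the markers were chosen with earlier results of these data known. Folds are the exponential of the deposited value. A constant that the authors may have added before taking logs is not given and would draw the folds and relative levels of low genes towards 1. The shares of the summed level and the folds without cluster 2 are computed from these values and would change with them. Cluster sizes were solved by non-negative least squares over 401 genes listed for 2 or more clusters, without the 6 genes, so that the share of all cells detecting a gene agreed between clusters (sum 100.001%, residual SD 0.0228 percentage points). A relative level is fold/(size × fold + 1 − size), and a share of the summed level is that value times the size. The steps were tested on simulated data. Named genes were all members, the 3 genes most like a member by pattern, and from each list the 4 genes listed for most clusters. Alternatives were stricter thresholds, other size fits, base 2, a reference without cluster 2 and another likeness; the last section gives their effect. Python 3.11.15, numpy 2.4.6, pandas 2.3.3, scipy 1.17.1, matplotlib 3.10.9 and Biopython 1.88 were used.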

Additional observations from a re-analysis of the deposited data

How the results depend on the processing

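No paired analysis was possible because each group has 1 library and no test was made. Values were taken as unmoved within 5%, counts within 1.5 times. Both other size fits moved no size, share or level past this, and the folds without cluster 2 differed by at most 1.006 times between the size fits. An adjusted p under 0.05 changed no count. With absolute natural log values of 0.75 or more, Actc1 was still listed higher in 2 clusters, Acta1 and Tpm1 in 1 and Actb in 0, and Actg1 was lower in 1 and Actb in 0; in cluster 2, thin filament regulators gave 1 lower and the serum response factor list 0 higher. At 1 or more, Actc1, Acta1 and Tpm1 were higher in 1 cluster, Actb and Actg1 were listed in 0, and in cluster 2 the crosslinkers gave 1 lower, the turnover genes 1 higher, the thin filament regulators 0 lower and the serum response factor list 0 higher. With shares that differ by at least 10 percentage points, Actb was higher in 0 clusters and Tpm1 in 1. Tpm1 was then lower in 6 clusters in place of 8, without clusters 0 and 11. Leaving out cluster 13, an alternative chosen after seeing the data, left 1 listing each for Actc1, Acta1 and Tpm1 as higher and Actg1 as lower. Without cluster 2 in the reference, 4 of the 8 lower Tpm1 listings and 0 of the 1 higher Actb listings outside cluster 2 stayed past 0.5, and no direction turned. If the deposited logs were base 2, the level of Acta1 per detecting cell in cluster 2 would turn from 1.17 to 0.457 times that outside and that of Actc1 fall from 5.16 to 1.48 times, folds in cluster 2 would be 16.9 for Actc1, 8.32 for Acta1, 8.82 for Acta2 and 5.26 for Tpm1 higher and 1.65 for Actb and 1.73 for Actg1 lower (folds and levels per detecting cell added after seeing the data), and levels in cluster 2 relative to the mean of all cells would be 5.61 for Actc1, 4.32 for Acta1, 4.43 for Acta2, 3.42 for Tpm1, 0.637 for Actb and 0.610 for Actg1. With base 2, cluster 2 would also hold a smaller share of the summed level of the muscle actins and Tpm1, and a larger share for Actb and Actg1. Ranked by the share of clusters listing both genes in the same direction, 0 of the 3 genes most like Acta2 were the same. With 1 mismatch allowed, a choice made after seeing the data, 5 genes in place of 3 held a CArG box. Protein identity was not run, and coding bases were compared in its place.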
